A study of Zea mays with 24 samples.

Results

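In leaves of the maize inbred line W22, 145 alternative splicing (AS) events shifted in 1 direction as the maximum daily temperature (MDT) went up from 31°C through 33°C and 35°C to 37°C. They lay in 135 genes and made up 3.42% of the 4234 events that were covered well enough at stage V5 to be considered, and 28092 events were listed at V5 in all. An AS event is a place in a gene where the RNA is spliced in alternative ways, and its inclusion level ψ is the length-corrected share of RNA that carries the variable segment. The events were chosen by their own readout. An event entered when the share of inclusion reads, without length correction, had a value in all 12 V5 libraries with a mean of at least 20 reads, when its group means rose or fell at every step of MDT, when the share at 37°C and at 31°C differed by at least 10 percentage points, and when ψ at V4 moved the same way by at least 5 points between 31°C and 37°C with 3 libraries each. The changes between 37°C and 31°C at both stages, and the V5 values over the 4 MDTs, are therefore descriptions and carry no test.

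The study grew W22 plants in climate-controlled chambers, in duplicate for each MDT, with nights ramped down to 10°C below the MDT. The middle of the newest fully expanded leaf was collected at V5 (27 days after germination, DAG) and V4 (20 DAG), and 3 libraries per stage and MDT gave 24 libraries. All plants were W22, and the labelled groups differed in MDT and stage. Night temperature went with MDT, and plant age with stage. The baseline temperature of the study was 31°C MDT. Reads summed over the listed events ranged from 2662780 to 3378578 per library at V5 and from 1544943 to 2818842 at V4, where the 2 lowest were 31°C libraries whose inclusion reads had been recovered from ψ. The labels do not name the chamber of a library, so a chamber and its MDT cannot be told apart. No table of leaf marker genes was used here, so the labelled tissue was not checked against its markers.

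In plants the spliceosome joins exons and removes introns, and the 5 types of AS event differ in which boundary is chosen. In intron retention (IR) the inclusion isoform keeps an intron, which is the most familiar form of AS in plants and often brings in an early stop codon. In exon skipping (ES) an internal exon is kept or left out, in alternative 3′ or 5′ splice site use (A3SS, A5SS) an exon begins or ends at a nearer or farther site, and in mutually exclusive exons (MXE) either of a pair of exons is used. SR proteins, which are rich in serine and arginine and bind RNA, guide the choice of sites, and transcripts of many SR genes are themselves alternatively spliced in plants.

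The 145 events comprised 49 A3SS, 41 IR, 40 ES, 13 A5SS and 2 MXE events. Inclusion fell with MDT in 88 events and rose in 57, so that 60.7% fell, against 54.1% of the 4234 events considered. A3SS events fell in 34 cases and rose in 15, so that 69.4% fell, against 58.9% of all A3SS events considered. IR events fell in 24 cases and rose in 17, ES events fell in 21 and rose in 19, A5SS events fell in 7 and rose in 6, and both MXE events fell. The chosen events were 4.15% of the ES events considered, 3.94% of A3SS, 3.00% of IR, 2.40% of A5SS and 1.69% of MXE. Retained introns became both scarcer and more frequent within the same leaves: median ψ of the 24 falling introns was 18.5% at 37°C and 32.5% at 31°C at V5, and that of the 17 rising introns was 28.8% at 37°C and 14.6% at 31°C. Members lay on all 10 chromosomes, with 20 on chromosome 4 and 9 on chromosome 9, and 1 lay on an unplaced contig. In bulk leaf RNA, a change of splicing within cells and a change in the make-up of the cells cannot be told apart.

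**Figure D1:**
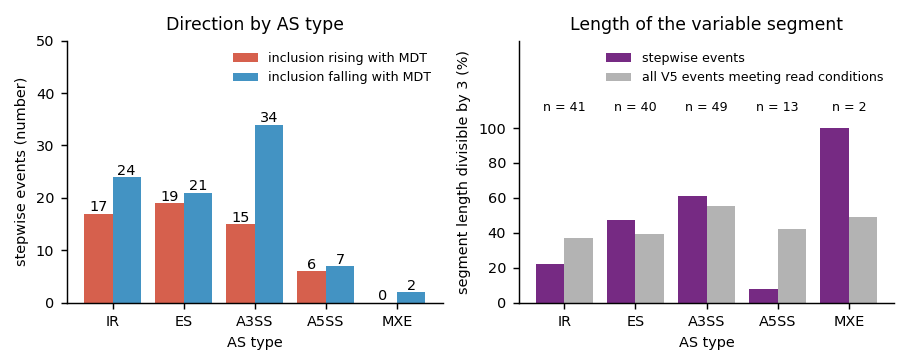
Left, number of stepwise events whose inclusion rose or fell with MDT, by AS type. Right, percentage of the variable segments whose length is a multiple of 3 bases, in the stepwise events and in all V5 events considered; n is the number of stepwise events. Of the A3SS events 34 fell and 15 rose, where 58.9% of all A3SS events considered fell, and 1 of 13 A5SS segments had a length divisible by 3.

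A segment whose length is a multiple of 3 bases keeps the reading frame where it is coding. Of the variable segments, 61 of 145 (42.1%) had such a length, against 43.9% of all events considered. The share was 61.2% in A3SS (55.2% of all A3SS considered), 47.5% in ES (39.5%), 21.95% in IR (37.0%) and 7.69%, or 1 of 13, in A5SS (42.3%). Median segment lengths were 340 bases for IR (379 for all IR considered), 103 bases for ES (106), 18 bases for A3SS (15) and 23 bases for A5SS (34).

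In 12 of the 49 A3SS events the acceptor sites lay 3 bases apart, as in tandem acceptors, and all 12 lost the longer form with rising MDT, by 10.04 to 23.6 points of share at V5. Falling was the common direction for this length, since 74.1% of the 239 events considered with a 3-base segment fell. Among the best covered, Zm00001d053595 (chromosome 4, 235826213 to 235826215, minus strand, mean 424 reads at V5) had ψ of 87.1 ± 4.1%, 77.7 ± 1.27%, 71.7 ± 1.65% and 69.7 ± 4.63% at 31°C, 33°C, 35°C and 37°C at V5 (SD, n = 3). Zm00001d021282 (chromosome 7, 147764391 to 147764393, plus strand) had ψ of 65.9 ± 4.52%, 61.7 ± 2.03%, 59.5 ± 4.00% and 53.7 ± 1.01% over the same V5 series. Zm00001d004616 (chromosome 2, 122075648 to 122075650, minus strand) was a minor longer form throughout, at 24.5 ± 4.7%, 21.8 ± 2.9%, 17.7 ± 1.66% and 13.0 ± 4.69%. In the V4 comparison of 35°C with 33°C, whose libraries were not used in the choice, 10 of these 12 events had a lower mean ψ at 35°C, against 58.9% of the 231 3-base events that could be compared. This group was singled out after its values had been seen, and the 231 did not all have to meet the V5 and V4 conditions of the choice.

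The size of the shift varied widely. The share changed by a median of 16.9 points between 37°C and 31°C at V5 (from 10.04 to 49.6), by over 20 points in 53 events and by over 30 points in 25, whereas the median over all events considered was 3.81 points. On the ψ scale the median shift was 16.2 points at V5 and 14.6 points at V4, and it was larger at V5 in 84 events and at V4 in 61. The events just inside the limit were an A3SS event of Zm00001d011541 (fell by 10.0 points of share), an ES event of Zm00001d019036 (fell by 10.3) and an A3SS event of Zm00001d017324 (fell by 10.3). Just outside it were an A5SS event of Zm00001d043767 (fell by 9.95), an IR event of Zm00001d050043 (fell by 9.95) and an A3SS event of Zm00001d045072 (fell by 9.93). Coverage was moderate, with a median of 76.0 reads per library at V5 (20.8 to 1317) and 51.8 at V4 (11.2 to 1012), and 46 events had under 50 reads at V5.

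The V5 shift was spread over the 3 steps of MDT. The largest step in share was that between 33°C and 31°C in 52 events, between 35°C and 33°C in 41 and between 37°C and 35°C in 52, and it made up a median of 54.4% of the whole change. Median ψ had moved along the direction of change by 5.27 points at 33°C, 11.3 points at 35°C and 16.2 points at 37°C at V5, and by 5.30, 9.57 and 14.4 points at V4 in the 135 events with 3 libraries in every V4 group. At V4 the same step was the largest in 49 of these 135 events. The length-corrected ψ was strictly stepwise in 140 of the 145 events at V5. At V4, where the middle MDTs were no condition, it was strictly stepwise in 53 of 135 (39.3%), against 24.4% of the 1749 V4 events with all 12 values and a change of at least 5 points. Both middle means lay between those of 31°C and 37°C in 80 of 135 events (59.3%), against 40.3% of the same 1749. The V4 means of 37°C and 31°C that bound these courses were part of the choice, and the 135 events had a median V4 change of 14.4 points, against 10.4 points in the 1749, so nothing is read from these shares.

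**Figure D2:**
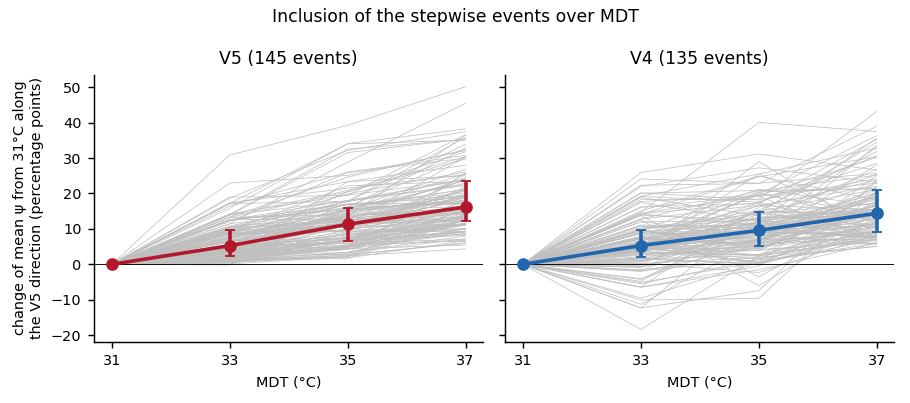
Change of mean ψ from its 31°C value, in percentage points, against MDT for V5 (left, 145 events) and V4 (right, 135 events with 3 libraries in every group). The sign is set so that the V5 direction of each event points up; grey lines are events, and coloured points are medians with bars from the lower to the upper quartile. Medians reached 16.2 points at V5 and 14.4 points at V4 at 37°C; V5 courses rose by construction, and V4 courses crossed more often.

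Libraries at 37°C and 31°C did not overlap in 120 of 145 events at V5 (26.6% of all events considered did not) and in 85 of 145 at V4 (25.3% of all V4 events compared). Both contrasts chose the events, so nothing is read from these counts. At V5 the libraries of 35°C and 33°C did not overlap in 31 of 145 events, against 20.0% of all events considered. The V5 means of 35°C and 33°C were also part of the choice, so nothing is read from this count either.

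The largest V5 shift among events with at least 50 reads was loss of a retained intron. Zm00001d052675 (chromosome 4, 196966569 to 196967118, plus strand) kept an intron of 550 bases. In Zm00001d052675 at V5, ψ was 78.4, 58.3 and 70.8% at 31°C, 35.0, 47.8 and 32.2% at 33°C, 33.0, 31.9 and 24.9% at 35°C and 17.6, 20.5 and 19.0% at 37°C. Zm00001d052675 at V4 had ψ of 48.0, 63.0 and 81.0% at 31°C, 71.9, 47.0 and 55.5% at 33°C, 42.4, 54.4 and 42.7% at 35°C and 26.0, 29.1 and 45.1% at 37°C. The intron was kept in most RNA at 31°C and spliced out of most at 37°C at V5, with no overlap between these MDTs at either stage, but the V4 libraries of 33°C overlapped those of 31°C.

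Other introns were removed more fully at high MDT. In Zm00001d039061 (chromosome 6, 169446595 to 169447100, plus strand), ψ at V5 was 21.2, 19.2 and 19.5% at 31°C, 11.9, 12.1 and 14.9% at 33°C, 6.1, 6.3 and 6.3% at 35°C and 4.5, 4.7 and 5.2% at 37°C. Zm00001d039061 at V4 had ψ of 21.2, 23.3 and 20.0% at 31°C, 10.4, 12.1 and 14.1% at 33°C, 12.8, 9.3 and 7.9% at 35°C and 6.00, 3.1 and 6.4% at 37°C. This was among the tightest series, and the groups of adjacent MDTs did not overlap at V5, while at V4 35°C overlapped 33°C. Spliced reads, scaled as reads per 1000000 reads over all listed events of a library (RPM), were higher at 37°C (51.4 RPM, against 33.9 at 31°C at V5) and intron reads lower (11.4 against 37.1). A further intron of the gene (chromosome 6, 169439594 to 169439931, plus strand) also fell, with V5 means of 22.9 ± 7.67%, 14.4 ± 5.69%, 13.6 ± 1.95% and 13.6 ± 5.86% over the 4 MDTs (SD, n = 3). In Zm00001d048524 (chromosome 9, 157776221 to 157776562, plus strand), ψ at V5 was 32.5, 34.0 and 40.9% at 31°C, 24.2, 13.7 and 29.8% at 33°C, 18.7, 23.3 and 23.3% at 35°C and 15.9, 12.9 and 7.2% at 37°C. Zm00001d048524 at V4 had ψ of 51.1, 56.9 and 46.0% at 31°C, 41.2, 36.9 and 52.3% at 33°C, 27.0, 39.6 and 26.0% at 35°C and 31.1, 30.3 and 28.7% at 37°C. Retention was lower at 37°C than at 31°C in every library of both stages, and V4 stood above V5 at each MDT by its mean. In Zm00001d015100 (chromosome 5, 75372507 to 75372846, plus strand), ψ at V5 was 22.8, 18.7 and 19.6% at 31°C, 7.2, 12.4 and 17.6% at 33°C, 5.6, 4.00 and 5.6% at 35°C and 3.5, 3.2 and 5.5% at 37°C. Zm00001d015100 at V4 had ψ of 12.6, 14.6 and 20.7% at 31°C, 3.67, 2.21 and 6.12% at 33°C, 9.00, 5.7 and 6.9% at 35°C and 4.8, 6.6 and 9.7% at 37°C. At V4 the mean was lowest at 33°C, and the course was not stepwise.

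Rising retention was seen in Zm00001d022590 (chromosome 7, 180542230 to 180542313, plus strand), whose intron has 84 bases. In Zm00001d022590 at V5, ψ was 21.9, 17.7 and 17.5% at 31°C, 32.1, 24.8 and 32.7% at 33°C, 33.6, 37.5 and 39.0% at 35°C and 35.2, 48.4 and 45.6% at 37°C. Zm00001d022590 at V4 had ψ of 32.7, 30.8 and 27.0% at 31°C, 39.3, 40.4 and 27.5% at 33°C, 42.5, 52.8 and 34.6% at 35°C and 45.3, 53.5 and 35.7% at 37°C. Libraries of 37°C lay above those of 31°C at both stages, with wide spread at V4. The best covered rising intron was that of Zm00001d052093 (chromosome 4, 179377468 to 179377667, plus strand, mean 1070.3 reads at V5). In Zm00001d052093 at V5, ψ was 26.4, 27.6 and 31.2% at 31°C, 40.8, 41.6 and 40.2% at 33°C, 44.0, 40.5 and 48.1% at 35°C and 50.1, 54.0 and 49.8% at 37°C. Zm00001d052093 at V4 had ψ of 21.8, 25.4 and 22.9% at 31°C, 28.0, 27.7 and 31.1% at 33°C, 35.6, 40.7 and 37.4% at 35°C and 57.3, 57.3 and 58.7% at 37°C. At V4 the 4 groups did not overlap at any step, and the step from 35°C to 37°C was the largest. Zm00001d051080, whose closest Arabidopsis gene encodes adenine phosphoribosyl transferase 2, an enzyme of adenine salvage, kept an intron (chromosome 4, 141102707 to 141102909, plus strand) more often with rising MDT. In Zm00001d051080 at V5, ψ was 10.6, 12.8 and 11.9% at 31°C, 10.1, 15.1 and 13.9% at 33°C, 14.6, 16.9 and 14.0% at 35°C and 19.3, 14.6 and 25.4% at 37°C. Zm00001d051080 at V4 had ψ of 13.4, 14.9 and 15.6% at 31°C, 18.6, 6.34 and 19.9% at 33°C, 12.4, 18.9 and 5.7% at 35°C and 20.4, 19.8 and 28.9% at 37°C. The V5 shift was 8.00 points, and 33°C and 35°C overlapped 31°C or 37°C at both stages. Spliced reads of this intron were lower at 37°C (22.7 RPM, against 46.1 at 31°C at V5), and intron reads were close (13.0 against 14.6).

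Among ES events, SCL33 (Zm00001d022243), which encodes an SR protein of the SCL subfamily, included an exon of 105 bases (chromosome 7, 173493102 to 173493206, plus strand) more often with rising MDT. In SCL33 at V5, ψ was 12.4, 9.6 and 8.1% at 31°C, 12.9, 10.3 and 10.9% at 33°C, 16.8, 14.9 and 12.8% at 35°C and 21.9, 29.1 and 21.3% at 37°C. SCL33 at V4 had ψ of 14.0, 7.7 and 5.9% at 31°C, 17.5, 14.1 and 7.52% at 33°C, 17.4, 17.5 and 18.6% at 35°C and 26.3, 24.7 and 34.5% at 37°C. All 37°C libraries lay above all others at both stages. Reads of both isoforms were higher at 37°C at V5: inclusion reads were 30.3 RPM, against 4.66 at 31°C, and skipping reads were 57.1, against 24.4 at 31°C. The exon was still skipped in most RNA at every MDT.

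The splicing regulator genes of interest in the study otherwise held no such event. SR45a, SR34, SRP, SCL33 and SPFcc1-like had 59 events listed at V5, of which 30 met the value and read conditions, and the SCL33 exon was the only stepwise event among the 30. SR45a had 9 such events and SR34 had 10, with none stepwise. Over all 4234 events considered, 533 (12.6%) were stepwise and 3.42% were among the 145. Counts in so few events were not tested against these shares, so nothing is read from them. In the V4 comparison of 35°C with 33°C, 32 events of the 5 genes were tested, 2 were called, both in SR45a, and the SCL33 exon was not (FDR = 0.550, quasi-binomial F test). The 3 maize genes syntenic to Arabidopsis SR45a had no listed event at V5. The other 10 listed genes had 25 events that met the conditions, of which 4 were stepwise, against the same 12.6%. Of these, 1, in the CAU1 homolog, was among the 145.

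The homolog of Arabidopsis CAU1 (Zm00001d004109), whose Arabidopsis counterpart is an arginine methyltransferase, used the longer of a pair of A3SS forms, which differ by 407 bases (chromosome 2, 83270318 to 83270724, minus strand), less often as MDT went up. In CAU1 at V5, ψ was 53.2, 62.2 and 59.3% at 31°C, 38.1, 39.3 and 45.9% at 33°C, 39.3, 29.6 and 35.8% at 35°C and 32.9, 41.7 and 25.1% at 37°C. CAU1 at V4 had ψ of 63.3, 40.1 and 69.9% at 31°C, 40.6, 47.5 and 49.3% at 33°C, 30.3, 49.4 and 56.6% at 35°C and 34.2, 23.9 and 34.9% at 37°C. Libraries of 37°C lay below those of 31°C at both stages, and 35°C overlapped 33°C at both. The event had a mean of 40.4 reads at V5.

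Zm00001d046112, closest to Arabidopsis spermidine synthase 3, a gene of polyamine synthesis, skipped an exon of 45 bases (chromosome 9, 63974012 to 63974056, plus strand) more often with rising MDT. In Zm00001d046112 at V5, ψ was 75.7, 81.3 and 77.3% at 31°C, 63.2, 63.6 and 69.8% at 33°C, 58.1, 61.5 and 60.6% at 35°C and 56.8, 55.3 and 54.7% at 37°C. Zm00001d046112 at V4 had ψ of 75.9, 79.7 and 73.0% at 31°C, 67.2, 76.1 and 72.2% at 33°C, 63.4, 59.1 and 56.3% at 35°C and 60.9, 56.4 and 64.9% at 37°C. The 31°C libraries lay above all others at V5, and at V4 the 33°C and 31°C libraries lay above those of 35°C and 37°C. Skipping reads were 117 RPM at 37°C at V5, against 30.9 at 31°C, and inclusion reads 190 against 144.

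BGI_novel_G002237, a locus outside the named gene models, skipped an exon of 95 bases (chromosome 7, 181069745 to 181069839, minus strand) at high MDT. In BGI_novel_G002237 at V5, ψ was 96.9, 95.1 and 95.3% at 31°C, 87.9, 88.8 and 88.1% at 33°C, 80.5, 76.2 and 79.5% at 35°C and 77.8, 77.0 and 80.2% at 37°C. BGI_novel_G002237 at V4 had ψ of 96.5, 98.3 and 94.8% at 31°C, 94.1, 93.5 and 92.6% at 33°C, 81.1, 84.5 and 78.6% at 35°C and 81.1, 84.1 and 82.5% at 37°C. At V5 the groups of 31°C, 33°C and 35°C did not overlap and 37°C overlapped 35°C, and at V4 the main drop lay between 33°C and 35°C. Inclusion reads were about level at V5 (233 RPM at 37°C, against 223 at 31°C), and skipping reads were 39.3 at 37°C, against 6.09 at 31°C.

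Zm00001d040855 held 2 overlapping ES events that share all skipping reads, with exons that begin together and end 60 bases apart. In Zm00001d040855 at V5, ψ of the shorter exon (chromosome 3, 72171134 to 72171352, plus strand) was 44.0, 44.4 and 43.0% at 31°C, 39.6, 37.7 and 38.4% at 33°C, 24.2, 23.2 and 22.3% at 35°C and 14.1, 15.4 and 10.7% at 37°C. Zm00001d040855 at V4 had ψ of 66.0, 63.4 and 61.8% at 31°C, 41.6, 50.6 and 44.2% at 33°C, 51.8, 43.6 and 40.6% at 35°C and 16.6, 24.5 and 20.7% at 37°C. The V5 groups did not overlap, and at V4 the exon was included more than at V5 in every group by its mean, with 35°C overlapping 33°C. In Zm00001d034853 at V5, ψ of an exon of 372 bases (chromosome 1, 303817815 to 303818186, minus strand) was 42.2, 28.3 and 27.3% at 31°C, 22.4, 27.5 and 20.3% at 33°C, 21.6, 17.8 and 21.4% at 35°C and 16.6, 12.9 and 11.2% at 37°C. Zm00001d034853 at V4 had ψ of 31.1, 35.9 and 38.3% at 31°C, 33.3, 19.0 and 39.6% at 33°C, 16.8, 28.1 and 20.7% at 35°C and 27.5, 17.2 and 20.1% at 37°C. The 37°C libraries lay below those of 31°C at both stages.

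Exons included more often with rising MDT were found in 4 further genes among the largest V5 shifts. In Zm00001d014091 at V5, ψ of an exon of 125 bases (chromosome 5, 32001946 to 32002070, minus strand) was 12.0, 27.0 and 12.9% at 31°C, 19.3, 11.7 and 20.4% at 33°C, 38.6, 33.5 and 28.5% at 35°C and 49.0, 46.8 and 46.9% at 37°C. Zm00001d014091 at V4 had ψ of 7.8, 33.4 and 25.7% at 31°C, 15.8, 8.31 and 12.5% at 33°C, 13.9, 10.4 and 13.8% at 35°C and 43.7, 47.9 and 37.8% at 37°C. This event was stepwise at V5 in the share of reads (27.30% at 31°C and 27.39% at 33°C) but not in ψ. Its mean V5 ψ was 17.3% at 31°C and 17.1% at 33°C. At V4 only 37°C stood above 31°C, and 33°C and 35°C had lower means than 31°C. In Zm00001d034834 at V5, ψ of an exon of 156 bases (chromosome 1, 303357595 to 303357750, plus strand) was 2.2, 0.7 and 3.2% at 31°C, 8.4, 11.8 and 9.1% at 33°C, 13.0, 6.8 and 19.6% at 35°C and 30.5, 16.3 and 17.4% at 37°C. Zm00001d034834 at V4 had ψ of 4.5, 3.4 and 2.6% at 31°C, 11.3, 3.71 and 3.15% at 33°C, 2.8, 4.3 and 19.6% at 35°C and 8.9, 14.0 and 12.4% at 37°C. The exon was included in under 5% of the RNA in every 31°C library of both stages. In Zm00001d053036 at V5, ψ of an exon of 115 bases (chromosome 4, 210073395 to 210073509, plus strand) was 42.8, 36.7 and 20.7% at 31°C, 66.7, 52.6 and 49.7% at 33°C, 56.7, 62.9 and 55.9% at 35°C and 57.5, 63.6 and 75.4% at 37°C. Zm00001d053036 at V4 had ψ of 50.1, 75.6 and 44.1% at 31°C, 55.2, 77.2 and 80.7% at 33°C, 75.1, 78.9 and 73.5% at 35°C and 78.0, 61.7 and 49.2% at 37°C. The V4 groups of 37°C and 31°C overlapped. In Zm00001d040852 at V5, ψ of an exon of 99 bases (chromosome 3, 71771651 to 71771749, minus strand) was 15.7, 11.1 and 16.7% at 31°C, 27.3, 13.1 and 28.8% at 33°C, 29.6, 21.5 and 31.3% at 35°C and 29.7, 38.2 and 49.1% at 37°C. Zm00001d040852 at V4 had ψ of 14.4, 31.3 and 18.9% at 31°C, 25.6, 27.7 and 16.1% at 33°C, 22.6, 26.8 and 22.6% at 35°C and 47.4, 33.7 and 43.7% at 37°C. At V4 the 3 lower MDTs overlapped and 37°C lay above them.

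**Figure D3:**
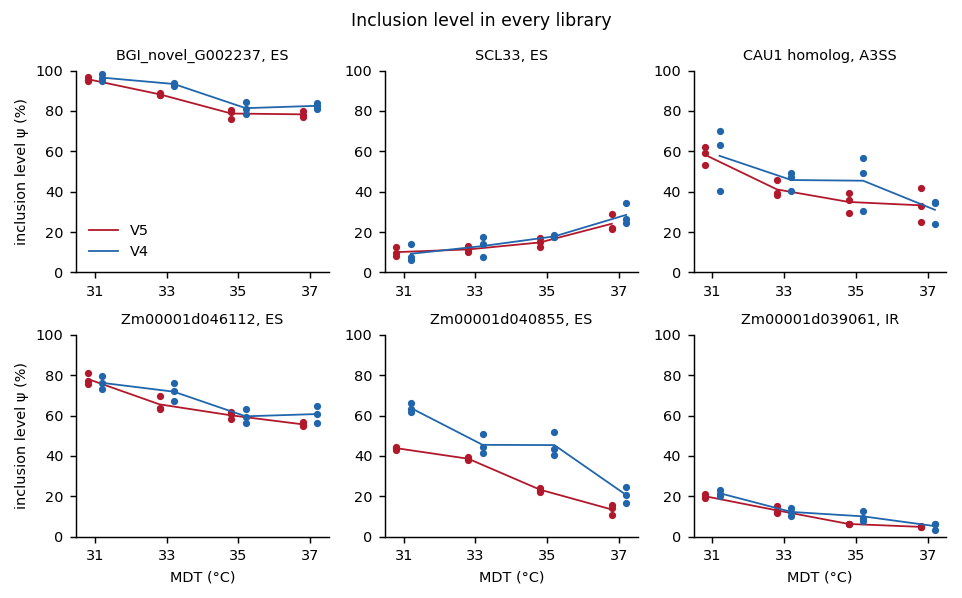
Inclusion level ψ in percent against MDT for 6 events, in V5 (red) and V4 (blue); points are libraries and lines join the means of 3. ψ of the SCL33 exon rose to 21.3 to 29.1% at 37°C at V5, and that of the Zm00001d040855 exon fell to 10.7 to 15.4%.

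Alternative splice sites shifted in the same stepwise way. Zm00001d039321 used a longer A3SS form, by 74 bases, more often (chromosome 3, 1764496 to 1764569, minus strand). In Zm00001d039321 at V5, ψ was 12.0, 19.9 and 32.8% at 31°C, 46.6, 23.7 and 28.7% at 33°C, 40.7, 30.5 and 41.7% at 35°C and 63.9, 46.7 and 52.7% at 37°C. Zm00001d039321 at V4 had ψ of 29.1, 17.3 and 16.4% at 31°C, 33.8, 14.3 and 25.5% at 33°C, 27.6, 43.7 and 22.3% at 35°C and 42.6, 44.8 and 74.5% at 37°C. The 37°C libraries lay above those of 31°C at both stages, and neighbouring MDTs overlapped, except 37°C and 35°C at V5. The best covered A3SS event was that of Zm00001d048515 (chromosome 9, 157631150 to 157631165, minus strand, a choice between sites 16 bases apart), with means of 70.3 ± 1.81%, 80.9 ± 1.23%, 87.1 ± 2.44% and 90.5 ± 1.65% at V5 and 64.7 ± 1.46%, 72.0 ± 0.874%, 79.7 ± 3.66% and 85.9 ± 1.33% at V4 (SD, n = 3), stepwise at both stages. The best covered A5SS event, in Zm00001d019124 (chromosome 7, 18112706 to 18112733, plus strand, a 28-base segment), fell, with means of 58.7 ± 2.36%, 48.3 ± 2.56%, 43.7 ± 3.79% and 33.0 ± 1.46% at V5 and 58.4 ± 3.6%, 53.0 ± 2.27%, 48.3 ± 0.5% and 37.4 ± 0.666% at V4. An A5SS event of Zm00001d011746 (chromosome 8, 160674427 to 160674449, plus strand) rose, with means of 48.4 ± 1.01%, 62.4 ± 2.3%, 66.4 ± 0.819% and 72.4 ± 2.4% at V5 and 48.8 ± 2.56%, 48.0 ± 2.77%, 59.8 ± 3.16% and 67.1 ± 2.88% at V4.

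In 10 genes 2 events were chosen, and in 7 of these both moved the same way. In 3 genes the events moved in opposite directions: Zm00001d043997 and Zm00001d034834 included an exon more often while an intron of the same gene was retained less often, and in Zm00001d017460 an exon was included more often while an MXE exon elsewhere in the gene was used less often. In Zm00001d043997 the intron (chromosome 3, 216110007 to 216110214, plus strand) lies directly beside the exon (chromosome 3, 216109905 to 216110006, plus strand). A read spliced from the exon across this intron can count both as inclusion of the exon and as removal of the intron. The opposite directions in Zm00001d043997 may therefore not be separate measurements. Its exon had V5 means of 28.3 ± 0.862%, 35.5 ± 4.86%, 44.4 ± 7.94% and 49.4 ± 10.2% over the 4 MDTs, and the intron 38.5 ± 8.89%, 30.2 ± 5.39%, 28.7 ± 8.09% and 19.5 ± 2.44% (SD, n = 3). The segments overlapped in 4 of the 10 genes, and in 3 of these all skipping reads were shared, so they are not separate measurements. The 226 other events considered in genes of the 145 were strictly stepwise in 12.4% of cases, against 9.32% of the 3863 events of other genes. Events that overlap a chosen event or share its reads were not taken out of the 226, so nothing is read from this difference. At V5 the 2 isoforms of an event moved in opposite directions between 37°C and 31°C, in RPM, in 101 of 145 events (69.7%, against 37.1% of the 4089 other events). Summed reads of an event at V5 stayed within 1.5-fold in 117 of 145 (80.7%, against 78.6%). At V4 they did so in 97 of 145 (66.9%, against 77.4%), and 13 of the 145 were lower and 3 higher by over 2-fold. Reads of both stages also entered the choice of events, through the share or ψ.

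The V4 libraries of 35°C and 33°C took no part in the choice. A quasi-binomial test across 6323 V4 events compared them, and an event was called differentially spliced (DAS) where its false discovery rate (FDR) did not exceed 0.01 and mean ψ differed by over 5 points. It called 7 events, or 0.111%, and 1 of the 145. This was the exon of BGI_novel_G002237, with ψ of 81.1, 84.5 and 78.6% at 35°C and 94.1, 93.5 and 92.6% at 33°C at V4, a difference of -12.0 points (FDR = 0.00252, quasi-binomial F test with Benjamini-Hochberg adjustment). At an unadjusted p under 0.05 the test passed 23 of the 145 (15.9%), against 8.43% of all events tested and 10.5% of the 3773 other events that met the V5 value and read conditions. All 23 had moved in the direction of their V5 shift, whereas 73.7% of the 395 passing events outside the 145 had done so, and 79.4% of the 68 of those with a V5 change of at least 10 points. The libraries did not overlap in 23 of 135 events (17.0%), close to the 15.9% of all events with 6 values. Of these 23, 20 moved with the V5 direction and 3 against it. Directions of the other events without overlap were not counted, so nothing is read from this split.

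Mean ψ at V4 moved with the V5 direction between 35°C and 33°C in 108 of 145 events (74.5%), by a median of 3.45 points. Over all 3948 events that could be compared, 2277 (57.7%) did so, by a median of 0.556 points, and of the 783 with a V5 change of at least 10 points, the 145 included, 522 (66.7%) did so, by 2.81 points. Differences of over 10 points were found with the V5 direction in 27 of the 145 (18.6%, against 18.5% of the 623 other tested events with a V5 change of at least 10 points) and against it in 3 (2.07%, against 8.35%). Of the 17 events with at least 200 reads at V4, 16 (94.1%) moved with the V5 direction. In 8 of them p was under 0.05 (47.1%, against 19.0% of other events as well covered, quasi-binomial F test). Of the 59 with 50 to 200 reads, 41 (69.5%) moved with it and 9 had p under 0.05 (15.3%, against 10.4%). Of the 69 with under 50 reads, 51 (73.9%) moved with it and 6 had p under 0.05 (8.70%, against 6.46%). The share with p under 0.05 thus rose with coverage, while the share moving with the V5 direction was lowest at 50 to 200 reads. Directions of other events were not counted by coverage, and the part of coverage was not tested.

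**Figure D4:**
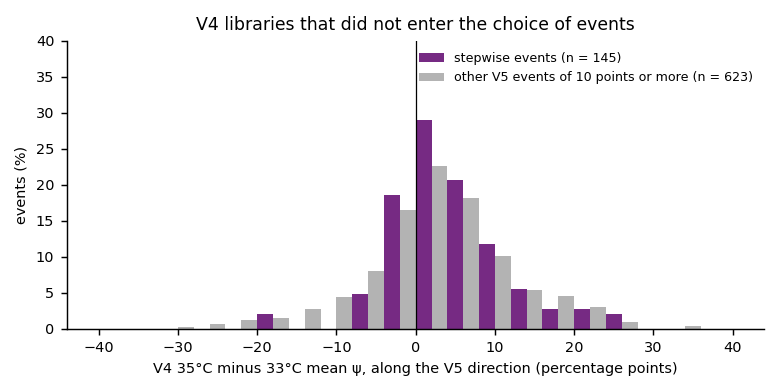
Distribution of the V4 difference in mean ψ between 35°C and 33°C, in percentage points, signed so that the V5 direction of each event is positive; bars give the percentage of events per bin of 4 points, for the 145 stepwise events (purple) and 623 other tested events with a V5 change of at least 10 points (grey). Medians were 3.45 and 2.59 points, and 3 of the 145 lay below -10 points. The other events did not have to meet the V4 condition of the choice.

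The next lowest FDRs were those of 2 rising introns. That of Zm00001d052093 had ψ of 35.6, 40.7 and 37.4% at 35°C and 28.0, 27.7 and 31.1% at 33°C at V4 (difference 9.00 points, FDR = 0.0230, quasi-binomial F test). In Zm00001d047739 (chromosome 9, 140355217 to 140355419, plus strand), ψ was 42.2, 46.2 and 48.6% at 35°C and 29.7, 20.3 and 19.2% at 33°C (difference 22.6 points, FDR = 0.0418). Groups did not overlap in either, but neither passed the threshold. When a value was required in all 3 libraries of each group, 21 of 4252 events (0.494%) were called and 5 of the 135 chosen events that remained. The cause of this rise in calls was not tested. The 5 were these 2 introns, BGI_novel_G002237, the Zm00001d046112 exon and an intron of Zm00001d052624 (chromosome 4, 195161428 to 195162554, minus strand). In Zm00001d052624 at V4, ψ was 20.3, 24.2 and 14.6% at 35°C and 28.1, 39.1 and 35.2% at 33°C, and at V5 the intron had means of 29.0 ± 0.666%, 22.7 ± 2.72%, 17.0 ± 3.07% and 14.9 ± 2.00% over the 4 MDTs (SD, n = 3). Limma on log2 ratios of the reads called 0 of the 145 and 0 of all events, with 13 and 514 at an unadjusted p under 0.05. The quasi-likelihood test of edgeR was limited to the 135 and 4252 events with a value in all 3 libraries of each group. It called 1 and 9, where the quasi-binomial test called 5 and 21.

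In 3 events the V4 libraries of 35°C and 33°C moved apart against the V5 direction. An ES event of Zm00001d026382 that fell at V5 had mean ψ of 64.9 ± 15.0% at 35°C and 46.3 ± 4.38% at 33°C at V4, with 21.9 reads. An A3SS event of Zm00001d038071 that rose at V5 had 58.0 ± 8.31% at 35°C and 75.3 ± 7.68% at 33°C, with 23.6 reads. An A3SS event of Zm00001d013360 that fell at V5 had 79.8 ± 3.95% at 35°C and 75.1 ± 1.44% at 33°C, with 123 reads (SD, n = 3). In none of the 3 did the V5 libraries of 35°C and 33°C stand apart.

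The level of inclusion also differed between stages. The choice of events did not use this contrast directly, although it used the same V5 and part of the same V4 libraries. With MDT as a factor, the quasi-binomial test called 615 of 4979 events (12.4%) as DAS between V5 and V4. Of the 145, 24 were called (16.6%), 11 higher at V5 and 13 lower, against 5.18% and 7.17% of all events tested, and 14.6% of the 3670 other events that met the V5 conditions. By type, 8 of 41 IR events were called (19.5%, against 18.0% of all IR events tested), 8 of 40 ES (20.0%, against 13.0%), 7 of 49 A3SS (14.3%, against 6.75%), 1 of 13 A5SS (7.69%, against 9.85%) and 0 of 2 MXE (against 16.5%). Of the 57 rising events 5 were higher and 1 lower at V5, and of the 88 falling events 6 were higher and 12 lower. The choice asked for a larger change at V5 (10 points) than at V4 (5 points), which can move the V5 mean along the direction of an event. This split was not counted for other events, so nothing is read from it. On the libraries of 33°C and 35°C alone, 14 of the 145 were called (9.66%), close to the 8.93% of all 5899 events tested.

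**Figure D5:**
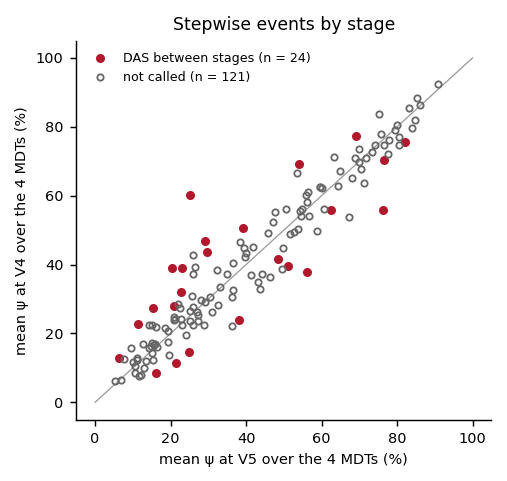
Mean ψ of the 145 events over the 4 MDTs at V5 (horizontal axis) and V4 (vertical axis), in percent; filled points are the 24 events called as DAS between the stages, open points the other 121, and the line marks equal values. Points lie on both sides of the line, 11 called events higher at V5 and 13 lower.

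Introns gave some of the largest stage differences. Retention in Zm00001d031860 (chromosome 1, 204435404 to 204435515, plus strand) averaged 76.3% at V5 and 55.9% at V4 over the 4 MDTs (FDR = 6.16e-06, quasi-binomial F test), and in Zm00001d047739 56.1% at V5 and 37.9% at V4 (FDR = 1.19e-06). Zm00001d047739 had a higher mean at 37°C than at 31°C at both stages, with means over the 4 MDTs of 39.1 ± 4.73%, 51.2 ± 8.3%, 65.0 ± 3.76% and 69.1 ± 3.91% at V5 and 29.5 ± 5.8%, 23.1 ± 5.8%, 45.7 ± 3.23% and 53.2 ± 8.88% at V4 (SD, n = 3). Retention in Zm00001d048524 averaged 23.0% at V5 and 38.9% at V4 (FDR = 8.53e-07), and in Zm00001d052675 39.1% at V5 and 50.5% at V4 (FDR = 0.00686). The Zm00001d040855 exon averaged 29.8% at V5 and 43.8% at V4 (FDR = 1.39e-07), and the A3SS event of Zm00001d048515 82.2% at V5 and 75.6% at V4 (FDR = 1.86e-07). The widest gap, in an ES event of Zm00001d053657, was 25.1% at V5 against 60.1% at V4 (FDR = 0.000242) at a mean of 29.5 V5 reads, with an SD of up to 38.1 points within a V4 group. The exon of SCL33 (FDR = 0.135), the CAU1 event (FDR = 0.834) and the Zm00001d046112 exon (FDR = 0.119) were not called between stages, with differences of V5 minus V4 of -2.06, -3.13 and -2.26 points.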

How the data were processed

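Poly(A) RNA of 24 leaf samples of maize W22, 3 libraries at each of 4 MDTs and 2 stages, was sequenced by the authors. According to the methods, reads were filtered with SOAPnuke, aligned to the B73 genome (RefGen_V4) with HISAT2 (version 2.0.4 in the submitters' processing notes), and AS events were detected with rMATS. Positions are 1-based on RefGen_V4. RefGen_V4 sequence and annotation were not used here. Gene names come from the study, and no sequence is printed.

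The deposited counts are the authors' raw inclusion and skipping reads. The fraction ψ was computed by the authors with length correction and deposited to 3 decimals. In ES events, these values imply an effective length of 149 bases for the skipping form (median), whereas the methods give reads of 50 bases. Every ψ rests on that correction, whose effect was not tested, and the shares of reads do not use it. Values exist only where both isoforms had at least 1 read, and the rest were treated as missing. Columns were assigned to samples by name, which gave 67 columns, and 5 columns of single samples, whose names do not carry the full sample name, were not used. They include inclusion reads deposited for a pair of V4 libraries at 31°C (replicates 2 and 3). For this pair, inclusion reads were derived from ψ, the skipping reads and the ratio of effective lengths for 8731 and 8996 events, of which 92.2% and 91.9% were fixed within 5%. The same ratio and the reads gave ψ of the V4 33°C libraries.

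The events, gene lists and tests were chosen with earlier results of these data known. Quasi-binomial models of both read counts were fitted per event in R 4.3.3 across whole tables. The residual deviance was moderated with squeezeVar of limma 3.58.1, not allowed below 1, and p-values of the F test received Benjamini-Hochberg adjustment separately by AS type. A mean of 10 reads and a value in 2 of the 3 libraries of each group were required. DAS meant an FDR of at most 0.01 and over 5 points of mean ψ. The test was checked on simulated counts. Replicates are separate samples, and reads carry no molecular identifiers, so reads are not counts of single molecules.

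Values of every library are printed for the event called between V4 35°C and 33°C and for chosen events of listed genes. They are also printed for the 12 largest V5 share changes with at least 50 reads (1 event a gene), and for 2 events whose genes the study annotates by an Arabidopsis hit. Of events called only under an alternative setting, Zm00001d052093 and Zm00001d046112 have all values. Zm00001d047739 and Zm00001d052624 have those of V4 35°C and 33°C, and Zm00001d022272 has none. Other events were named for their coverage or direction after their values had been seen. Alternatives covered read minimum, missing values, FDR, adjustment, limma, edgeR 4.0.16, replicate block, pooled spread and leaving out each library. Python 3.11.15 and pandas 2.3.3 served for the tables.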

Additional observations from a re-analysis of the deposited data

How the results depend on the processing

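The number of stepwise events was 145, and 124 to 162 when a library was left out. It was 93 when the change in share had to reach 15 points, 99 with at least 50 reads, 142 when events that share all skipping reads were counted once, and 147 on ψ, of which 119 were among the 145. In the V4 comparison of 35°C with 33°C, DAS calls were 1 among the 145 and 7 in all. They were 3 and 17 at an FDR of at most 5%, and 5 and 21 with a value required in all 3 libraries. With the same values required, edgeR called 1 and 9, from 135 and 4252 events. Limma on log2 ratios called 0 and 0, with 13 and 514 at an unadjusted p under 0.05. A spread shared over all 4 V4 groups gave 2 (BGI_novel_G002237 and Zm00001d052093) and 7. Leaving out a library gave 1 to 2 and 3 to 8. The 2 were reached without 35°C replicate 1, where the Zm00001d022272 exon was also called, and all calls fell to 4 without 33°C replicate 1 and 3 without 33°C replicate 2 or 3. The count that moved with the V5 direction, 108 of 145, was 99 to 106 without a library, which also leaves fewer events with values. Between V5 and V4, 24 of the 145 and 615 events in all were called. On the 33°C and 35°C libraries alone there were 14 and 527, from fewer samples, and without a library 19 to 25 and 554 to 625. The causes of these moves were not tested.

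Samples with the same replicate number did not deviate together: over 3040 events, 84 such pairs had correlations from -0.0656 to 0.0585 (median 0.00204). With the replicate block, calls were 1 among the 145 and 9 in all for V4 35°C against 33°C, and 24 and 614 for V5 against V4.

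Of the 145 events, 46 had under 50 reads at V5, and the part of depth in the number of calls was not tested. Inclusion reads deposited for a pair of V4 libraries at 31°C were not used, and the chamber of a library is not given in the labels.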
